A study of Drosophila melanogaster with 2 samples.

Results

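The mRNAs described here encode the nuclear-encoded subunits of the mitochondrial respiratory chain and of ATP synthase in *Drosophila melanogaster*. They were taken by name from the table of FPKM values. A row was included when its name or current RefSeq symbol begins with ND- (complex I), UQCR- (complex III), COX4 to COX8 (complex IV) or ATPsyn (complex V), or when it is one of the subunits with a name of its own (*RFeSP*, *Cyt-c1*, *levy*, *cype*, *blw* and *sun*, or an older symbol of the rest). This gave 86 of the 16863 genes in the table, namely 40 for complex I, 11 for complex III, 18 for complex IV and 17 for complex V.

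RNA bound by ME31B, a DEAD-box RNA helicase that associates with translationally repressed maternal mRNAs, was sequenced from stage 14 oocytes, the final stage of oogenesis before the egg is activated. The ME31B immunoprecipitate (hereafter IP) and the input lysate from which it was taken gave 1 rRNA-depleted library each, from a large-scale culture, with no genotype or stage to set them against. Both libraries carry the strain label eGFP-Me31B, in the *w1118* background, which the study's account of precipitated GFP-tagged ME31B shares, although its oocyte isolation method names only *w1118* flies. The antibody of the IP is missing from its label, and the protocol lists both anti-GFP and IgG. It was read as the anti-GFP library from the methods, and each value below depends on that reading. RNA recovered with control IgG was not analysed here.

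The respiratory chain passes electrons from NADH through complex I, and from succinate through complex II, to ubiquinone, then through complex III and cytochrome c to complex IV, where oxygen is reduced. Complexes I, III and IV pump protons across the inner mitochondrial membrane, and complex V, the ATP synthase, uses their return to make ATP. Most subunits are encoded in the nucleus and made on cytosolic ribosomes, while a core set of membrane subunits is encoded by mitochondrial DNA. Oocytes carry a large maternal store of mitochondria and of the mRNAs for their proteins. The mitochondrially encoded subunits were not found among the gene names and are not analysed here.

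Occupancy was taken as IP FPKM divided by input FPKM. FPKM scale fragments to transcript length and to the mapped reads of a library, so levels may be compared between genes of a library. That comparison is less sure for very short transcripts, whose FPKM depend on the length assumed, and for genes that may share reads. FPKM values are relative to the other RNAs of their library, so a ratio of IP FPKM to input FPKM has no fixed zero. Occupancies are given on the log2 scale relative to the median gene, whose IP FPKM was 1.26 times its input FPKM. A value of 0 is thus the occupancy of the median of the 6886 genes above 0.5 FPKM in both libraries. With 1 library of each kind there is no replicate check, and no p-value or error could be attached to any value below. A gene was counted when its occupancy was 2-fold or more away from that of the median gene.

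The oocyte label was checked against markers. All 8 germline and oocyte markers were above 0.5 FPKM in both libraries, from 11.4 to 4674 FPKM in the IP and from 12.4 to 920.8 FPKM in the input. Among 9 eggshell genes of follicle cells, 8 were above 0.5 FPKM in both libraries, led by *Cp15* at 308.6 FPKM in the IP and 520.3 FPKM in the input. Muscle, a tissue rich in respiratory chain mRNAs, was represented by 8 markers of which none exceeded 2.06 FPKM in the IP or 2.21 FPKM in the input, and *Act88F* was listed at 0 in both. Of 6 gut markers, the highest was *alphaTry* at 12.2 FPKM in the IP and 20.1 FPKM in the input, and no fat body marker exceeded 1.02 FPKM in the IP or 1.58 FPKM in the input. Of 7 testis markers, *can*, *sa* and *aly* were listed at 0 in both libraries, and nearly all of the summed level was from *bam*, a germline differentiation gene, at 61.1 FPKM in the IP and 49.4 FPKM in the input. The part of follicle cell or gut RNA in the values below was not tested.

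Of the 86 genes, 65 were above 0.5 FPKM in both libraries and are described by occupancy, 33 from complex I, 8 from complex III, 11 from complex IV and 13 from complex V. The other 21 were 20 duplicate genes and *ND-B8*, a complex I subunit listed at 0 in both libraries. The span of *ND-B8* overlaps *Gs1l*. The genes named as copies of a subunit (suffix L, L1 or L2) were mostly listed at 0, as was *ND-B8*, so that a 0 in this table was not read as absence of the mRNA. In flies, many such duplicates of respiratory genes are expressed mainly in testis. Of 21 copies, 17 were listed at 0 in both libraries, among them *ND-51L1*, *ND-51L2*, *COX4L* and *ATPsynbetaL*. *COX6AL2* was listed just above 0 in both, far under the minimum. *COX7CL* and *COX7AL* had 0.87 and 0.24 FPKM in the IP and were listed at 0 in the input. Only *COX7AL2* (CG34172) passed the minimum in both, with 0.85 FPKM in the IP against 1.91 FPKM in the input, whereas its parent *COX7A* had 557.2 FPKM in the IP against 328.0 FPKM in the input.

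The 65 mRNAs were abundant and, as a set, close to the median gene. Their median level was 475.6 FPKM in the IP and 305.6 FPKM in the input, against 42.7 FPKM in the IP and 34.4 FPKM in the input over all genes kept. Their median relative occupancy was 0.05 on the log2 scale, with quartiles at −0.35 and 0.58, against quartiles of −0.62 and 0.55 over all genes. Of the 65, 4 (6.15%) were at least 2-fold above the median gene, where the rule called 9.48% of all genes kept, and 6 (9.23%) were at least 2-fold below it, where it called 15.2% of all genes. On this scale neither share exceeded that of all genes, but the balance depended on the scaling. It was 12 above and 4 below without centring. With no filter and a pseudocount of 0.5 FPKM it was 13 above and 3 below among all 86. Shares of all genes under these settings were not computed, so no excess over all genes can be read from these counts. On the centred scale, 37 of the 65 (56.9%) lay within 1.5-fold of the median gene, against 49.9% of all genes. Without centring, 47 of the 65 (72.3%) had more FPKM in the IP than in the input, against 64.2% of all genes. The 4 mRNAs at least 2-fold above were *UQCR-11*, *ND-AGGG*, *ND-13B* and *ND-MNLL*, and the 6 at least 2-fold below were *blw*, *ATPsynbeta*, *ND-75*, *COX7AL2*, *ND-51* and *ND-42*. The closest to the rule without meeting it were *ND-B15* at 0.90 and *ND-39* at −0.96.

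**Figure D1:**
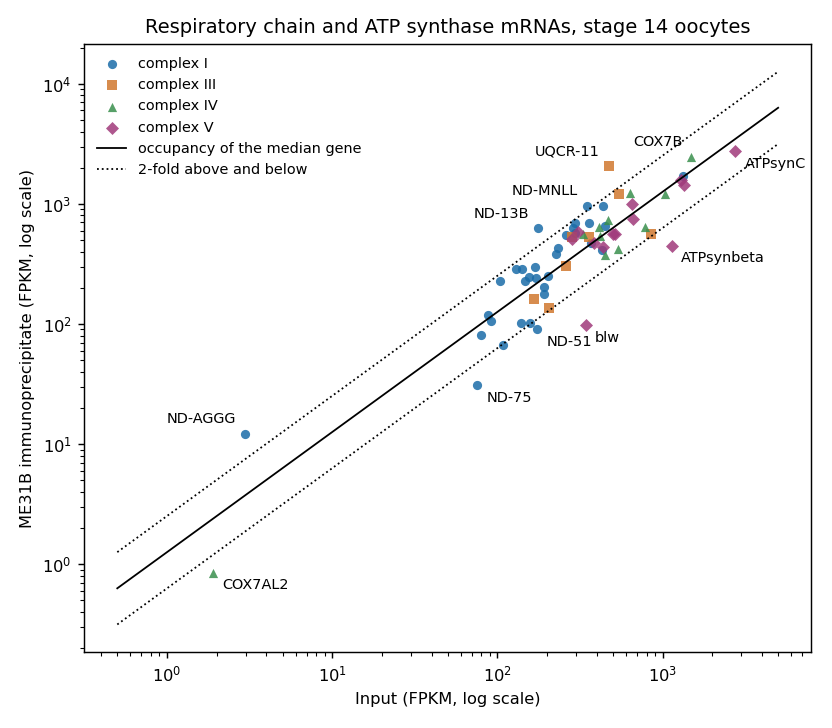
IP FPKM (y axis) against input FPKM (x axis), both on log scales, for the 65 respiratory chain and ATP synthase mRNAs above 0.5 FPKM in both libraries, with 1 point per gene coloured and shaped by complex. The solid line marks the occupancy of the median gene and the dotted lines a 2-fold difference from it. *UQCR-11*, *ND-13B*, *ND-AGGG* and *ND-MNLL* lie above the upper dotted line, and *blw*, *ATPsynbeta*, *ND-75*, *ND-51*, *ND-42* and *COX7AL2* below the lower one.

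The complexes differed in their medians by less than the range within any of them. Complex I had a median relative occupancy of 0.31 over 33 mRNAs, complex III 0.05 over 8, complex IV 0.05 over 11 and complex V −0.18 over 13. Above the median gene were 22 of 33 mRNAs of complex I, 4 of 8 of complex III, 6 of 11 of complex IV and 3 of 13 of complex V. Without centring every value is 0.33 higher, so that the complex V median was 0.15 on that scale, on the other side of 0, and when genes were set against others of similar span, as given below, all 4 medians were negative. Among genes that overlap no other gene, the medians of complex IV and complex III were also negative, at −0.58 over 7 mRNAs and −0.11 over 3. The 7 of complex IV include *COX7AL2*, which had 0.85 FPKM in the IP and 1.91 FPKM in the input. The median without it was not computed, but the others lay on both sides of the median gene. Below it were *cype* at −0.69, *COX8* at −0.62 and *COX4* at −0.58, and above it *COX7B* at 0.38, *COX7A* at 0.43 and *COX5B* at 0.63. The value of −0.58 therefore does not place these genes as a group below the median gene. The SD of relative occupancy among the mRNAs of a complex was 0.77 for complex I, 0.93 for complex III, 0.65 for complex IV and 0.78 for complex V, against 0.92 over all genes. Summed over its genes, complex I made up 1.14% of all FPKM in the IP and 0.75% in the input. Complex III made up 0.48% in the IP and 0.29% in the input, and complex IV 0.78% in the IP and 0.61% in the input. Complex V made up 0.99% in both libraries. The 4 complexes together held 3.39% of all FPKM in the IP and 2.64% in the input. These shares are not centred on the median gene, whose IP FPKM was 1.26 times its input FPKM. A higher share in the IP therefore does not by itself place a complex above that gene.

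**Figure D2:**
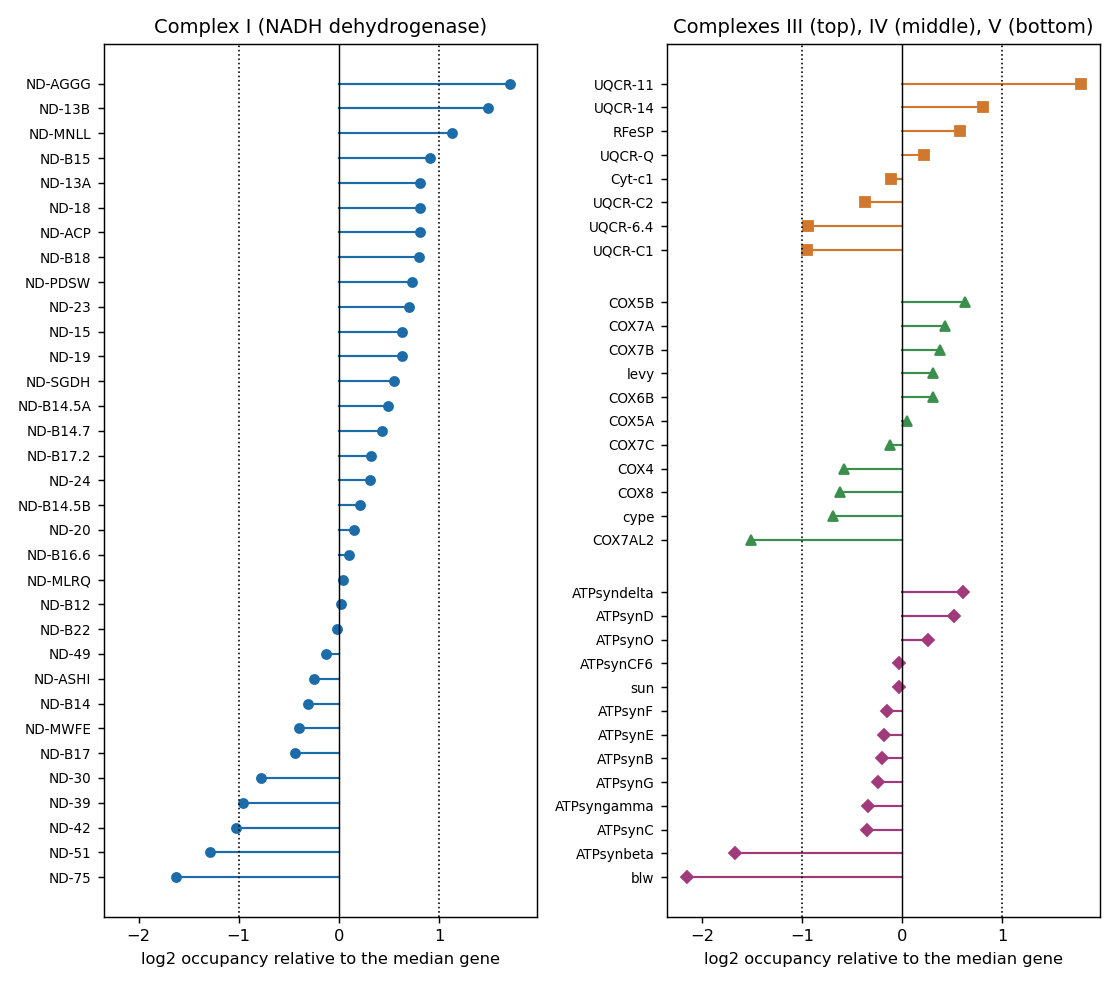
Relative log2 occupancy (x axis) of each of the 65 mRNAs (y axis), with complex I on the left and complexes III, IV and V from top to bottom on the right, ordered within each complex. Each point is 1 gene from 1 IP and 1 input library, the solid line at 0 is the median gene and the dotted lines mark 2-fold. Complex I runs from *ND-AGGG* at 1.71 to *ND-75* at −1.63, and complex V has 10 of its 13 mRNAs below 0.

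Within complex I, the core mRNAs ranged from well below to above the median gene. The N module accepts electrons from NADH, and its *ND-75* mRNA, which encodes the largest iron-sulfur subunit (chromosome X, 8248651 to 8251687, Release 6), had 30.9 FPKM in the IP against 75.6 FPKM in the input, a relative occupancy of −1.63 that only 5.49% of genes kept were below. *ND-51*, the flavin-bearing subunit that binds NADH (chromosome 2L, 6060842 to 6062757), had 90.2 FPKM in the IP against 174.2 FPKM in the input, at −1.28. *ND-24*, their smaller partner, had 229.6 FPKM in the IP against 147.0 FPKM in the input, at 0.31. The 3 mRNAs of this module thus lay on both sides of the median gene, with both larger subunits more than 2-fold below it. The span of *ND-51* overlaps CG34180, which was listed at 0 in both libraries.

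The Q module passes electrons on to ubiquinone and is encoded by 4 nuclear core genes, none of them 2-fold from the median gene. *ND-30* had 102.4 FPKM in the IP against 139.6 FPKM in the input, at −0.78, and *ND-49* had 105.2 FPKM in the IP against 91.4 FPKM in the input, at −0.13. *ND-20* had 239.6 FPKM in the IP against 170.9 FPKM in the input, at 0.15, and *ND-23* had 289.3 FPKM in the IP against 141.0 FPKM in the input, at 0.70. The 7 core mRNAs of both modules were at similar levels in the input, within a 2.30-fold range, and spread over a 9.37-fold range in the IP. Their median relative occupancy was −0.13. Over all 33 mRNAs of complex I the range was instead wider in the input, at 448-fold, than in the IP, at 140-fold. *ND-AGGG* was the scarcest in both, and the wider input range rested on this mRNA alone. Without it the range was wider in the IP, from *ND-75* at 30.9 to *ND-MLRQ* at 1719 FPKM. Input levels then ran only from 75.6 FPKM for *ND-75* to 1328 FPKM for *ND-MLRQ*.

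The 26 accessory mRNAs of complex I above the minimum had a median of 0.46, with 19 above the median gene and 7 below it. *ND-13B* (chromosome 3L, 10693184 to 10694108) had 625.0 FPKM in the IP against 176.5 FPKM in the input, at 1.49, a value that 97.7% of genes were below. *ND-MNLL*, a small subunit of the membrane arm, had 967.1 FPKM in the IP against 350.4 FPKM in the input, at 1.13. Its span overlaps CG45089, which had 495.0 FPKM in the IP against 292.5 FPKM in the input. *ND-AGGG*, another small membrane-arm subunit, had the highest relative occupancy of complex I at 1.71, but was by far its scarcest mRNA, with 12.2 FPKM in the IP against 2.97 FPKM in the input. The others of this complex had at least 75.6 FPKM in the input.

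Several accessory mRNAs stood between these and the median gene. *ND-ACP*, the mitochondrial acyl carrier protein that is also a free matrix protein of fatty acid synthesis, had 959.6 FPKM in the IP against 435.7 FPKM in the input, at 0.80. *ND-B15* (0.90), *ND-13A* (0.81), *ND-18* (0.81), *ND-B18* (0.80), *ND-PDSW* (0.73), *ND-15* (0.63), *ND-19* (0.63) and *ND-SGDH* (0.55) were on the same side. The most abundant mRNA of the complex, *ND-MLRQ*, had 1719 FPKM in the IP against 1328 FPKM in the input, at 0.04. Its mammalian counterpart was later placed in complex IV, and counting it there gave medians of 0.31 for complex I and 0.04 for complex IV. Next in abundance in the input were *ND-B14.5B*, with 656.9 FPKM in the IP against 450.3 FPKM in the input, at 0.21, and *ND-ACP*.

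At the low end of the accessory subunits were the largest of them. *ND-42* (chromosome 3R, 22027709 to 22029393) had 66.6 FPKM in the IP against 107.7 FPKM in the input, at −1.03, and *ND-39* had 102.7 FPKM in the IP against 158.1 FPKM in the input, at −0.96. They were followed by *ND-B17* at −0.44, *ND-MWFE* at −0.40, *ND-B14* at −0.31 and *ND-ASHI* at −0.25. *ND-B14* had nearly the same level in both libraries, with 80.8 FPKM in the IP and 79.4 FPKM in the input.

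Many complex I subunits carry in their name the approximate mass, in kDa, of the mammalian counterpart, which orders 25 of the 33 mRNAs by protein size. This ordering was chosen after the occupancies had been seen. The 6 with a number from 30 to 75 were all below the median gene, with a median of −0.99 and a range from −1.63 to −0.13. Their levels ran from 30.9 to 105.2 FPKM in the IP and from 75.6 to 174.2 FPKM in the input. The 7 with a number from 18 to 24 had a median of 0.63 and ran from −0.02 to 0.81. The 12 with a number from 12 to 17.2 had a median of 0.38 and ran from −0.44 to 1.49. Of the 6 large subunits, only *ND-49* lay within the range of the smaller ones, where *ND-B17* and *ND-B14* were lower than it.

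Across these 25 mRNAs, which come from the same pair of libraries and are not replicates, Spearman's rho between the number and relative occupancy was −0.57. It was −0.08 across the 19 numbered below 25, so that the relation rested on the 6 large subunits. The number was also related to input FPKM, with a rho of −0.49, and to the genomic span of the gene, with a rho of 0.65. The parts of abundance, gene length and transcript length in this order were not tested.

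**Figure D3:**
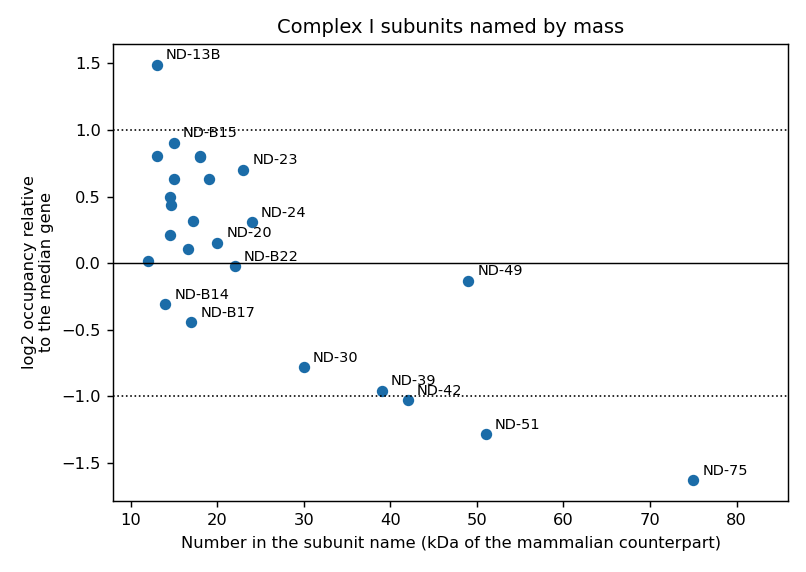
Relative log2 occupancy (y axis) of 25 complex I mRNAs against the number in the subunit name (x axis, approximate kDa of the mammalian counterpart), with the median gene at 0 and 2-fold as dotted lines. The 6 subunits numbered 30 to 75 lie between −1.63 and −0.13, and the 19 others between −0.44 and 1.49 with no order among themselves (rho −0.08).

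Complex III, the cytochrome bc1 complex, hands electrons from ubiquinol to cytochrome c, and its 8 mRNAs covered a wide range. *UQCR-11*, a small subunit (chromosome 3L, 25120709 to 25126171), had 2049 FPKM in the IP against 472.4 FPKM in the input. Its relative occupancy of 1.78 was the highest of the 65, and 99.1% of genes kept were below it. In the input, *UQCR-11* was the third most abundant mRNA of the complex, after *UQCR-6.4* and *UQCR-14*, and in the IP it was the first. *UQCR-14* had 1198 FPKM in the IP against 544.5 FPKM in the input, at 0.80, and *UQCR-Q* had 526.0 FPKM in the IP against 359.1 FPKM in the input, at 0.22. *UQCR-6.4*, the smallest by name, went the other way, with 559.4 FPKM in the IP against 848.3 FPKM in the input, at −0.94. A small encoded subunit was therefore not always at high occupancy.

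Of the 4 core subunits of complex III, only *RFeSP*, the Rieske iron-sulfur protein, was above the median gene, with 529.2 FPKM in the IP against 281.7 FPKM in the input, at 0.58. *Cyt-c1*, the haem-bearing cytochrome that reduces cytochrome c, had 303.6 FPKM in the IP against 260.1 FPKM in the input, at −0.11. *UQCR-C2* had 162.3 FPKM in the IP against 166.5 FPKM in the input, at −0.37, and *UQCR-C1* had 134.9 FPKM in the IP against 206.4 FPKM in the input, at −0.95. *UQCR-C1* and *UQCR-C2* encode the large core proteins on the matrix side of the complex, and were its least abundant mRNAs in both libraries. The core median was −0.24 and that of the 4 small subunits was 0.51. All 8 mRNAs lay within a 5.09-fold range in the input and a 15.2-fold range in the IP.

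In complex IV, cytochrome c oxidase, the 10 subunits other than *COX7AL2* had an SD of 0.49, and none was 2-fold from the median gene. The nuclear-encoded subunits are all small and surround a catalytic core encoded by mitochondrial DNA. *COX7B* (CG7630) was the most abundant, with 2448 FPKM in the IP against 1493 FPKM in the input, at 0.38. *COX7C* had 1199 FPKM in the IP against 1035 FPKM in the input, at −0.12. *COX5B* was the highest in relative occupancy, with 1232 FPKM in the IP against 630.4 FPKM in the input, at 0.63. *COX5A*, a matrix-side subunit like *COX5B*, had 541.1 FPKM in the IP against 414.8 FPKM in the input, at 0.05.

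The lower members of complex IV were *cype* (subunit 6C), *COX8* and *COX4*. *cype* had 421.3 FPKM in the IP against 538.1 FPKM in the input, at −0.69. *COX8* had 645.6 FPKM in the IP against 785.8 FPKM in the input, at −0.62. *COX4* had 376.4 FPKM in the IP against 445.4 FPKM in the input, at −0.58. All were higher in the input than in the IP. *levy* (subunit 6A) was above the median gene at 0.31, with 728.8 FPKM in the IP against 466.9 FPKM in the input. *COX6B* was also at 0.31 and *COX7A* at 0.43. *COX7AL2*, the only mRNA of the complex more than 2-fold below the median gene, was at −1.50 but rests on 0.85 FPKM in the IP and 1.91 FPKM in the input. Without it the complex IV median was 0.18.

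In complex V, the mRNAs of the alpha and beta subunits of the F1 head stood apart from those of the rest of the enzyme. F1 holds alternating alpha and beta subunits around a rotating shaft. *blw*, which encodes alpha (chromosome 2R, 22799099 to 22802180), had 97.4 FPKM in the IP against 343.0 FPKM in the input. Its relative occupancy of −2.15 was the lowest of the 65, with 2.21% of genes below it. *ATPsynbeta*, the catalytic beta subunit (chromosome 4, 1031484 to 1034917), had 449.1 FPKM in the IP against 1136 FPKM in the input, at −1.67, with 5.02% of genes below it. The span of *ATPsynbeta* overlaps CG11076, which stood at 0.98, with 784.7 FPKM in the IP against 315.3 FPKM in the input, whereas that of *blw* overlaps no other gene. In the input *ATPsynbeta* was the fourth most abundant mRNA of complex V, and in the IP only *blw* and *ATPsyngamma* were lower.

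The mRNAs of the F1 shaft did not share these values. *ATPsyngamma* had 435.4 FPKM in the IP against 436.8 FPKM in the input, at −0.34. *ATPsyndelta* had 586.7 FPKM in the IP against 305.6 FPKM in the input, at 0.61, the highest of the complex, and its span overlaps CG2962. *sun*, the epsilon subunit, had 1582 FPKM in the IP against 1282 FPKM in the input, at −0.03. The 5 F1 mRNAs therefore lay within a 4.20-fold range in the input and a 16.2-fold range in the IP. Without *blw* and *ATPsynbeta*, the other 11 mRNAs of complex V had a median of −0.16 and ran from −0.35 to 0.61.

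The Fo membrane subunits gave the most uniform values. *ATPsynC*, which forms the rotating proton-carrying ring and is present in many copies per enzyme, was the most abundant of the 65 mRNAs in both libraries, with 2729 FPKM in the IP against 2758 FPKM in the input, at −0.35. Its span overlaps the gene of the RNase P RNA. *ATPsynG* had 1430 FPKM in the IP against 1342 FPKM in the input, at −0.24. *ATPsynE* had 560.7 FPKM in the IP against 503.9 FPKM in the input, at −0.18. *ATPsynF* had 747.9 FPKM in the IP against 660.9 FPKM in the input, at −0.16. The SD of relative occupancy over these 4 was 0.09, although their levels differed by up to 5.47-fold in the input and 4.87-fold in the IP. In the peripheral stalk, which holds F1 against the membrane part, *ATPsynD* was at 0.52, *ATPsynO* at 0.26, *ATPsynCF6* at −0.03 and *ATPsynB* at −0.20, and their levels ran from 475.6 to 991.2 FPKM in the IP and from 281.4 to 655.7 FPKM in the input.

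The RefSeq genomic span of the genes, introns included and so no measure of transcript length, was set beside occupancy because longer genes had lower occupancy over the whole table, with a Spearman rho of −0.45 across 6550 protein-coding genes. Among the 65 the rho was −0.26, and between occupancy and input FPKM it was −0.05. Most of the genes were short, with 21 under 1000 bp and 30 from 1000 to under 2000 bp. The 21 had a median of 0.21, against 0.59 for 634 other protein-coding genes of that span, and the 30 had a median of 0.18, against 0.36 for 1737 other genes. The 8 from 2000 to under 4000 bp, among them *blw*, *ATPsynbeta* and *ND-75*, had a median of −0.65, against −0.04 for 1824 other genes. The 6 genes of at least 4000 bp went the other way, with a median of 0.32 against −0.49 for 2290 other genes, and 1 of these, *ND-15*, has an annotated span that covers many other genes. When each gene was set against protein-coding genes of its own span class instead of the median gene, the median of the 65 was −0.26, and those of the complexes were −0.08 for I, −0.10 for III, −0.48 for IV and −0.61 for V.

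**Figure D4:**
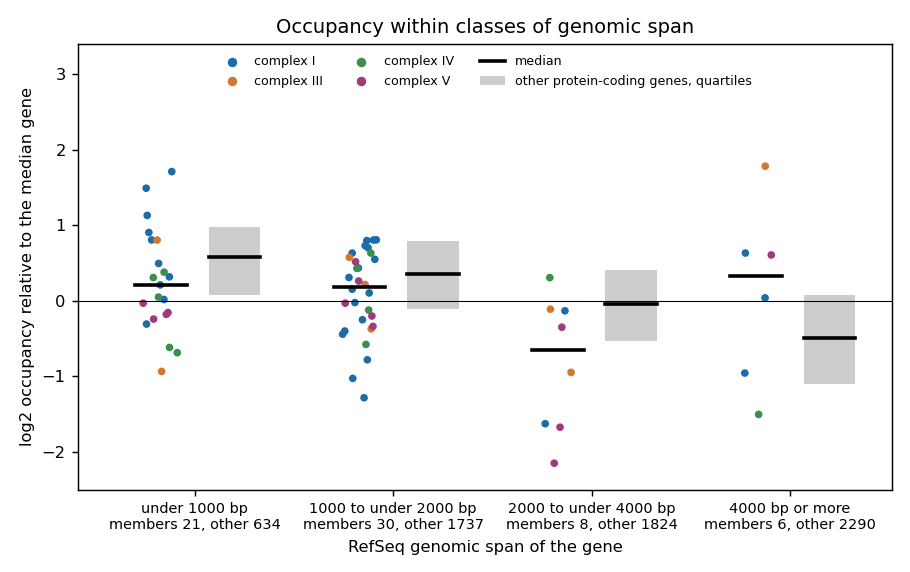
Relative log2 occupancy (y axis) in 4 classes of RefSeq genomic span (x axis). Points are the respiratory chain and ATP synthase mRNAs coloured by complex, with their median as a black line, and grey bars to the right of the points span the quartiles of other protein-coding genes, again with the median as a line. The points have a lower median than the other genes in the 3 classes under 4000 bp (0.21, 0.18 and −0.65 against 0.59, 0.36 and −0.04) and a higher one in the class of at least 4000 bp (0.32 against −0.49).

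The same mRNAs were also set beside other genes in classes of input FPKM. The 12 of the 65 with at least 600 FPKM in the input had a median of −0.14, against −0.58 for 162 other protein-coding genes of that abundance. The 21 from 300 to under 600 FPKM had a median of 0.21 against 0.17 for other genes, the 20 from 150 to under 300 FPKM 0.38 against 0.25, and the 12 under 150 FPKM −0.01 against −0.01. The lowest class is broad and no close match, as it holds 5809 other genes. Apart from *ND-AGGG* and *COX7AL2*, the 12 had at least 75.6 FPKM in the input, against a median of 34.4 FPKM over all genes kept.

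Other genes of the same pathway, taken from lists, were set beside these complexes. In complex II, which oxidizes succinate, *SdhA*, the large flavoprotein subunit, had 72.8 FPKM in the IP against 78.2 FPKM in the input, at −0.44. *SdhB*, the iron-sulfur subunit, had 174.4 FPKM in the IP against 77.9 FPKM in the input, at 0.83. Of the membrane anchors, *SdhC* had 316.0 FPKM in the IP against 140.4 FPKM in the input, at 0.84, and *SdhD* had 191.4 FPKM in the IP against 151.8 FPKM in the input, at 0.00. The copies *SdhAL*, *SdhBL* and *SdhCL* were listed at 0 in both libraries. *Cyt-c-p*, the cytochrome c that links complexes III and IV, had 1801 FPKM in the IP against 600.1 FPKM in the input, at 1.25, while the testis form *Cyt-c-d* had 0.24 FPKM in the IP and was listed at 0 in the input. The further complex III subunit *ox* was at 0.35.

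The 11 assembly factors found had a median of 0.48, with 3 (27.3%) past 2-fold on the upper side, against 9.48% of all genes kept, and none on the lower, against 15.2%. They ran from *Cox11* (CG31648), a copper chaperone of complex IV, at 1.21 to *ECSIT*, a factor for complex I assembly, at −0.58. The other factors past 2-fold were *Coa8* at 1.19 and *Surf1* at 1.08, both also for complex IV. Most of the factors found were for that complex. *Scox* at 0.60, *Cox10* at 0.57, *Coa7* at 0.48 and *Cox17* at 0.46 were among them and not past 2-fold. Several listed factors were not found by name, among them *Atpaf1* and *Atpaf2* for ATP synthase. Of 5 carriers and channels, 4 were above the minimum, with a median of −0.55, and none was 2-fold away. The ADP/ATP carrier *sesB* was at −0.95, the phosphate carrier *Mpcp2* was the lowest at −0.95 and *Ant2*, at 1.32 FPKM in the IP and 0.91 FPKM in the input, was the highest at 0.21. Of 14 enzymes of the citric acid cycle and pyruvate dehydrogenase, 4 (28.6%) were past 2-fold on the lower side, against 15.2% of all genes kept, and none on the upper, against 9.48%, around a median of −0.01. *mAcon1*, the mitochondrial aconitase, was the lowest at −1.93 and *Idh3a* the highest at 0.56. *Fum1*, at −1.47, overlaps *ND-ASHI*. The 72 genes of the mitochondrial ribosome had a median of 0.74, with 31.9% at least 2-fold above the median gene, where the rule called 9.48% of all genes kept and 6.15% of the respiratory chain and ATP synthase mRNAs.

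**Figure D5:**
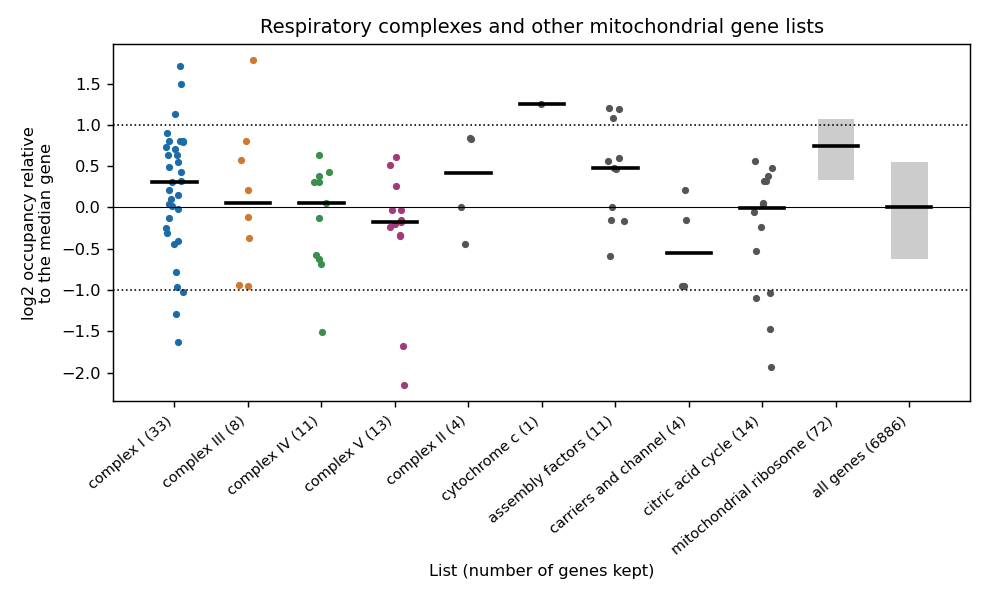
Relative log2 occupancy (y axis) by list (x axis, number of genes above the minimum in parentheses). Points are single genes, black lines are medians, and grey bars span the quartiles for the mitochondrial ribosome and for all genes. The medians run from 0.31 for complex I to −0.18 for complex V, with assembly factors at 0.48 and the mitochondrial ribosome at 0.74.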

How the data were processed

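RNA from 1 ME31B immunoprecipitate and 1 input of stage 14 oocytes was prepared with a stranded kit and sequenced as single-end reads. Per the methods and the submitters' processing notes, the authors converted reads with bcl2fastq 2.17, mapped them with STAR 2.5.2a to dm6, and quantified genes with Cufflinks 2.2.1, and the notes also name R 3.1.2. The authors deposited FPKM per gene, genes at 0 included. The annotation, the strand setting and the handling of multiply mapped reads were not given in the sources used here, so reads from overlapping or duplicated genes may be shared, and FPKM of very short transcripts depend on the length assumed. Read numbers are not given, so the depth is unknown and no counting interval was computed.

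Occupancy was computed with Python 3.11.15 and pandas 2.3.3 for genes above 0.5 FPKM in both libraries, with no pseudocount added, and the median gene was subtracted on the log2 scale. The minimum follows the methods, which do not name the library it applies to. Names were matched to RefSeq Release 6 for 6839 of 6886 genes, and all 86 genes described matched, 6 of them by synonym or locus tag. Spans and coordinates come from that table, whose assembly is the one dm6 represents, and 33 of the 65 genes kept overlap another gene. The computation was tested on simulated data. The genes, lists and measures were chosen with earlier results of these data known. Genes named were those 2-fold from the median gene, the extremes of each complex, sub-group and list, the 3 most abundant of each complex, and copies with their parents, and others were chosen after their values were seen. No sequences are printed.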

Additional observations from a re-analysis of the deposited data

How the results depend on the processing

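With 1 library per condition, no replicate could be left out. No paired analysis was possible because a single IP and a single input library hold no replicate numbers. Medians were read as unchanged within 0.1 on the log2 scale and counts within 1.5-fold, and of 67 values recomputed 44 were. Centring on span classes and placing *ND-MLRQ* in complex IV were chosen after the data were seen. Stricter filtering at 5 FPKM, pseudocounts of 0.5 or 1 FPKM with the same filter and centring on protein-coding genes changed no value beyond these limits. Without centring, the medians were 0.38 for the whole set, 0.64 for complex I, 0.39 for III, 0.38 for IV and 0.15 for V, with 12 mRNAs 2-fold above. With no filter and a pseudocount of 0.5, where the median over all 16863 genes is 0, the median over 86 genes was 0.19 and that of complex V 0.092, with 13 genes 2-fold above and 3 below. At 1.5-fold, 16 were above and 12 below, and at 3-fold 2 and 3. Shares of all genes were not computed for the counts without centring, without the filter or at these thresholds. Without copies, complex IV was at 0.18. Among the 32 genes that overlap no other, the median was −0.071, with −0.11 for 3 genes of complex III and −0.58 for 7 of complex IV. Those 7 include *COX7AL2*, which is close to the minimum in the IP, and the others lay on both sides of 0, from −0.69 to 0.63. Centred within span classes, the medians were −0.26 for the set, −0.081 for complex I, −0.10 for III, −0.48 for IV and −0.61 for V. Apart from the effects stated, the cause of these shifts was not tested.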
